A study of Mus musculus with 9 samples.

Results

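The 10 genes described here move copper into, through and out of the mouse cell: the importer Slc31a1 and its homologue Slc31a2, the export pumps Atp7a and Atp7b, the chaperones Atox1, Ccs, Cox17 and Sco1, the copper enzyme Sod1, and Commd1. They were taken by gene name, as 10 of the 54532 genes in the table, and all 10 were among the 13915 genes with enough reads to be tested. RNA was sequenced from 4T1 cells, an established mouse mammary carcinoma line. Au_TCPP cells were cultured with Au/Cu-TCPP(Fe)-PEG, a copper and iron porphyrin (TCPP) material with gold added, which the study describes as having glucose-oxidase-like as well as glutathione-consuming activity. Cu_TCPP cells were cultured with Cu-TCPP(Fe)-PEG, the same kind of material without gold, and Control cells with medium alone. Exposure lasted 24 h, there were 3 libraries per group, and all cells grew in high-glucose DMEM with serum and antibiotics. Both materials carry copper, iron and PEG, so a contrast with Control does not separate these components, and the sources used here do not give the doses. Nothing in the labels says that replicates were separate cultures, so p-values measure the spread between these samples, which may be technical.

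Copper enters mammalian cells as the reduced ion, mainly through Slc31a1 (CTR1) at the plasma membrane, while Slc31a2 (CTR2) sits mostly on endosomes and lysosomes. Inside the cell, chaperones pass copper by direct contact: Atox1 hands it to the pumps Atp7a and Atp7b in the secretory pathway, Ccs loads it into the superoxide dismutase Sod1, and Cox17 gives it to Sco1 for cytochrome c oxidase in mitochondria. Excess copper is held by metallothioneins and glutathione, and metallothionein genes are a textbook target of the metal-responsive factor MTF1.

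Total counts lay between 15477324 and 17494776 per library. Levels are given as CPM, the count as a share of the library's total scaled by TMM, and tests are edgeR's quasi-likelihood test with Benjamini-Hochberg adjustment over all genes tested, with a gene called at an adjusted p under 0.05. The Au_TCPP libraries stood apart from the others in how their reads were spread: the mean length of the gene a read came from was 4549 to 4669 nt in Au_TCPP, 5601 to 5720 nt in Cu_TCPP and 5632 to 5754 nt in Control libraries. TMM factors were 0.793 to 0.888 in Au_TCPP, 1.068 to 1.088 in Cu_TCPP and 1.111 to 1.118 in Control libraries. Au_TCPP replicate 2 had 2.37% of its reads on mitochondrial genes, against 1.09% to 1.47% in the other 8 libraries. Of 8 mammary epithelial markers 7 were tested, with a summed level of 4488 to 5390 CPM in Au_TCPP, 2853 to 3189 CPM in Cu_TCPP and 2945 to 3204 CPM in Control cells, and the basal keratin Krt14 lay between 0 and 1.34 CPM. The macrophage marker Adgre1 and the fibroblast marker Pdgfrb had no reads in any group. Summed over 7 macrophage markers, of which 2 (Cd68 and Cd14) were tested, the level was 71.9 to 96.4 CPM in Au_TCPP, 21.5 to 25.05 CPM in Cu_TCPP and 38.2 to 41.7 CPM in Control cells, and the part of these markers in the results was not tested. Summed fibroblast markers (2 of 5 tested) were at 26.7 to 31.7 CPM in Au_TCPP, 16.3 to 19.7 CPM in Cu_TCPP and 35.1 to 40.6 CPM in Control cells. Summed endothelial markers (1 of 5 tested) lay between 30.3 and 46.0 CPM in all libraries. In bulk libraries, a shift in which cells survived and a change in RNA per cell cannot be told apart.

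In Au_TCPP cells, 8 of the 10 copper genes were higher than in Control, 1 was lower and 1 did not pass the test. The called share was 90% of the 10, where 69.1% of all genes tested were called in that comparison, 34.4% higher and 34.7% lower. The median log2 fold change of the 10 was 0.48, against -0.01 over all genes tested. In Cu_TCPP cells, 1 gene (Sco1) was higher than in Control, 2 (Slc31a2 and Cox17) were lower and 7 did not pass, where 40.4% of all genes were called, 19.2% higher and 21.2% lower. The median of the 10 was -0.03, against -0.01 over all genes. The share of copper genes called with the gold-free material was 30%, no larger than the 40.4% of all genes. Between Au_TCPP and Cu_TCPP cells, 6 of the 10 were higher with gold and none was lower, where 65.9% of all genes were called, 34.6% higher and 31.3% lower. The count of 0 lower also held at an unadjusted p under 0.05 and with DESeq2. The authors' deposited table called 7 of the 10 higher and 1 lower in Au_TCPP against Control, and 3 higher and 1 lower in Cu_TCPP against Control. The contrasts share their libraries in pairs, so their counts are not independent of one another.

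**Figure D1:**
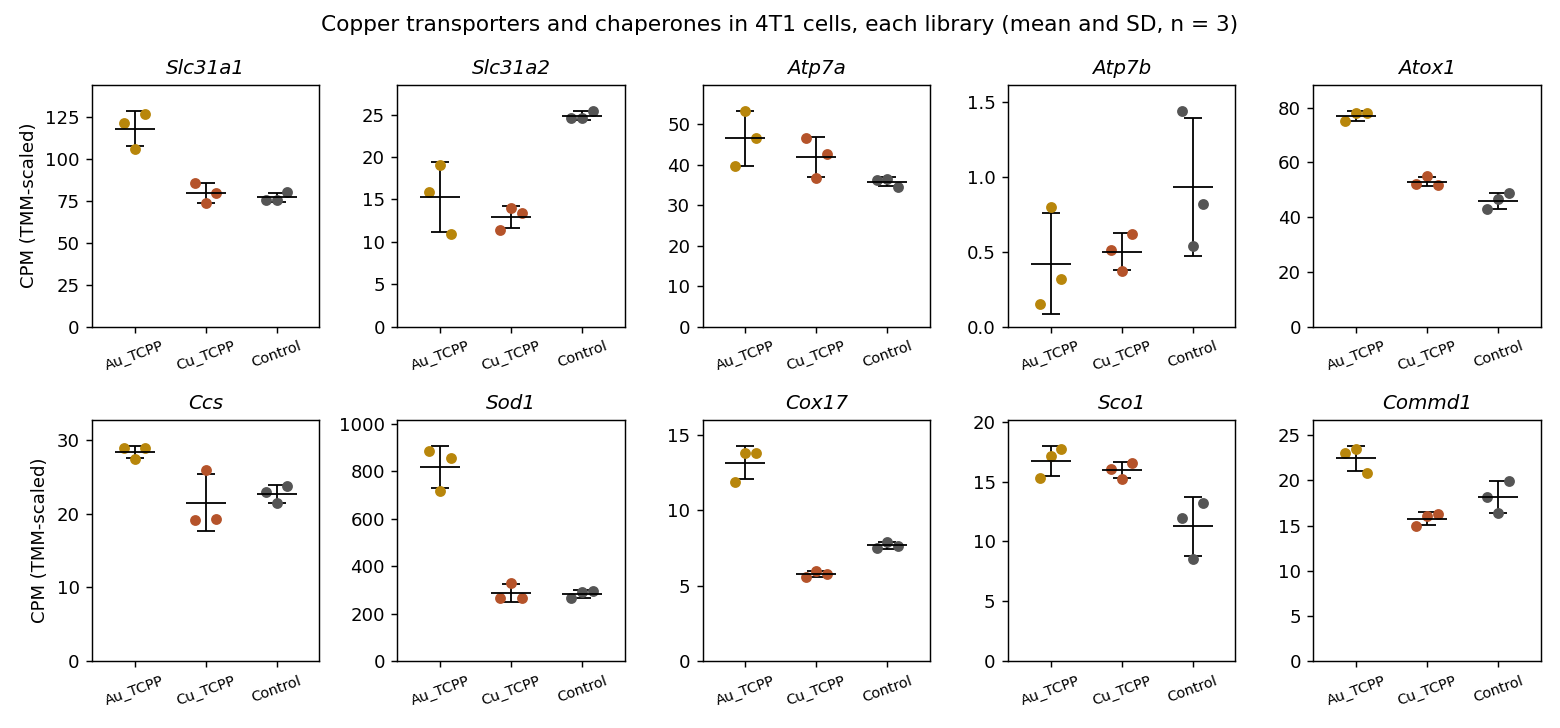
Level of each of the 10 copper genes in every library, in CPM scaled by TMM on a linear axis from 0, with points for the 3 libraries of Au_TCPP, Cu_TCPP and Control and bars for the mean and SD. Sod1 stands at 717 to 883 CPM in Au_TCPP and at 265 to 329 CPM in the other libraries, while Slc31a2 is lower in both treated groups than in Control.

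The homologous transporters Slc31a1 and Slc31a2 moved apart. Slc31a1 lies on the plus strand of chromosome 4 at 62360727 to 62391769 (mm10), and Slc31a2 lies 62315 nt upstream of it on the same strand, at 62262562 to 62298411. Slc31a1, the high-affinity importer, had 121.6, 106.2 and 126.6 CPM in Au_TCPP, 85.6, 73.8 and 79.7 CPM in Cu_TCPP, and 75.6, 75.7 and 80.3 CPM in Control libraries. Every Au_TCPP library was above the other 6, which overlapped one another. Slc31a1 was 1.53-fold higher in Au_TCPP than in Control (log2 fold change 0.61, SE 0.0883, adjusted p = 2.2e-05) and 1.48-fold higher in Au_TCPP than in Cu_TCPP (0.57, SE 0.0883, adjusted p = 4.9e-05). In Cu_TCPP against Control the log2 fold change was 0.05, with a 95% interval of -0.13 to 0.22 (adjusted p = 0.71).

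Slc31a2 had 15.9, 19.1 and 10.95 CPM in Au_TCPP, 11.4, 13.9 and 13.4 CPM in Cu_TCPP, and 24.6, 24.6 and 25.5 CPM in Control libraries. All 6 treated libraries were below the 3 Control libraries, and the treated groups overlapped. Slc31a2 fell by 0.70 on the log2 scale in Au_TCPP against Control (1.62-fold lower, SE 0.158, adjusted p = 0.0012) and by 0.94 in Cu_TCPP against Control (SE 0.157, adjusted p = 0.00031). In Au_TCPP against Cu_TCPP it differed by 0.24, with a 95% interval of -0.08 to 0.56 (adjusted p = 0.20), and it passed the test (0.39, adjusted p = 0.017) when Au_TCPP replicate 3, its lowest library, was left out. The ratio of Slc31a2 to Slc31a1 counts within a library, which no scaling between libraries can move, was 0.132 ± 0.0465 in Au_TCPP, 0.164 ± 0.0280 in Cu_TCPP and 0.323 ± 0.005 in Control libraries (SD, n = 3 each), without overlap between Control and either treatment. Fkbp15, the gene on the minus strand between them, followed neither: it averaged 21.6 ± 2.12 CPM in Au_TCPP, 44.1 ± 3.54 CPM in Cu_TCPP and 48.8 ± 3.25 CPM in Control cells (SD, n = 3 each). It fell by 1.18 on the log2 scale in Au_TCPP against Control (adjusted p = 1.3e-07) and differed by -0.15 in Cu_TCPP against Control (adjusted p = 0.24). Cdc26, on the minus strand, overlaps the span of Slc31a1 without sharing exon bases. Its log2 fold change was 0.81 in Au_TCPP against Control (adjusted p = 5.4e-06) and 0.54 in Au_TCPP against Cu_TCPP (adjusted p = 0.00027). In Cu_TCPP against Control, Cdc26 was higher by 0.28 (adjusted p = 0.043).

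The sequences upstream of the 4 members whose motifs or changes are set side by side here are shown as the 250 bases before the RefSeq transcription start (GRCm38.p6), 5′ to 3′ along the gene's strand: the pair of transporters, Sod1 as the gene with the largest change, and Atp7a, whose single listed promoter holds 2 metal response elements. Capitals mark matches to the metal response element bound by MTF1 (TGCACNC or TGCGCNC) or to the core of the antioxidant response element bound by NRF2 (TGACNNNGC), each sought on both strands. No match of one overlapped a match of the other. RefSeq places the start of Slc31a2 within the span given above rather than at its left end.
Slc31a2, chr4:62286179-62286428, plus strand: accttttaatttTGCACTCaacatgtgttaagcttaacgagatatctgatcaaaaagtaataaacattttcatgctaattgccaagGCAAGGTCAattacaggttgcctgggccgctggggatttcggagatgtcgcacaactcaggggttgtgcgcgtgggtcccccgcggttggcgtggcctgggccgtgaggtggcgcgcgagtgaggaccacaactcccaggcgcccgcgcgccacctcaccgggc
Slc31a1, chr4:62360451-62360700, plus strand: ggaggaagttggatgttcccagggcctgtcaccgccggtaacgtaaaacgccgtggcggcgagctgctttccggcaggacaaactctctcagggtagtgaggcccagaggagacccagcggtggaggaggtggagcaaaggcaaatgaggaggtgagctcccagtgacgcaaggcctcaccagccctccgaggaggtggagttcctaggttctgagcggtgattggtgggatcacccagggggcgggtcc
Sod1, chr16:90220512-90220761, plus strand: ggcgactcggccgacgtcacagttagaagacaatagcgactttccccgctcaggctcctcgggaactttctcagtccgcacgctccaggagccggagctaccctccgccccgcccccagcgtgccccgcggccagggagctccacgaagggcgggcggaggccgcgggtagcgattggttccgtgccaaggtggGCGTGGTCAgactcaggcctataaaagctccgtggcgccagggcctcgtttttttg
Atp7a, chrX:106026974-106027223, plus strand: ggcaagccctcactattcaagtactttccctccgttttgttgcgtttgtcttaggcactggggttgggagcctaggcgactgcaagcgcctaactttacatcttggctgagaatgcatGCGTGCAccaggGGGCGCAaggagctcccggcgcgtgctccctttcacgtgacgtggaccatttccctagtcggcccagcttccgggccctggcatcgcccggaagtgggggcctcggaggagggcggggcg
Slc31a2 held 1 metal response element, which began 238 bases before the start, and 1 antioxidant core 164 bases before it, whereas Slc31a1 held neither. Atp7a held 2 metal response elements, 132 and 120 bases before the start. Sod1 held no metal response element, 1 antioxidant core 56 bases before the start, and 4 GC boxes (GGGCGG, either strand). The 8 members matched in the RefSeq table have 9 listed promoters, 2 of them for Commd1. Of these 9, 5 held a metal response element (Slc31a2, Atp7a, Atp7b and both of Commd1), 4 an antioxidant core (Slc31a2, Atox1, Sod1 and the second of Commd1) and 5 a GC box. Over 32851 promoters of the same length, 21.4% held the first, 10.2% the second and 32.7% the third. A match describes letters only; among the 4 members with a metal response element, Slc31a2 was lower in both treatments, Atp7a and Commd1 were higher in Au_TCPP, and Atp7b did not pass. Ccs and Cox17 were not matched.

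The export pump Atp7a, on the X chromosome at 106027276 to 106124926, had 39.6, 53.2 and 46.7 CPM in Au_TCPP, 46.6, 36.6 and 42.6 CPM in Cu_TCPP, and 34.5 to 36.6 CPM in Control libraries. The Au_TCPP libraries lay above Control, and the lowest Cu_TCPP library was level with the highest Control library. Atp7a was 1.30-fold higher in Au_TCPP than in Control (log2 fold change 0.38, SE 0.115, adjusted p = 0.0088), a call that ended without Control replicate 3 (0.32, adjusted p = 0.052) and that came to 0.25 without Au_TCPP replicate 2. In Cu_TCPP against Control the log2 fold change was 0.23, with a 95% interval of 0.01 to 0.45, and did not pass after adjustment (adjusted p = 0.12). It was called higher in 5 of the 20 alternatives: with either length offset (0.32 and 0.33), with the 6 libraries alone, without Cu_TCPP replicate 2 (0.33, adjusted p = 0.043) and without Au_TCPP replicate 2 (0.24, adjusted p = 0.034). Au_TCPP and Cu_TCPP differed by 0.15, with an interval of -0.07 to 0.37.

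Atp7b, the related pump best known from liver, had few reads, with 2, 11 and 4 reads in the Au_TCPP, 9, 7 and 11 in the Cu_TCPP, and 26, 10 and 15 in the Control libraries. The groups overlapped. Its log2 fold change was -1.12 in Au_TCPP against Control (SE 0.556, adjusted p = 0.087), and it passed without Au_TCPP replicate 2 (-2.01, adjusted p = 0.011) or Control replicate 2 (-1.43, adjusted p = 0.046), so 1 library decided this call either way. At this depth, a difference between the groups was not settled for Atp7b.

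Atox1, the chaperone that feeds both pumps, lies on chromosome 11 at 55446641 to 55461239 and had 75.05, 78.26 and 78.02 CPM in Au_TCPP, 52.1, 55.0 and 51.8 CPM in Cu_TCPP, and 42.9, 46.6 and 48.7 CPM in Control libraries. The 3 groups did not overlap, with Au_TCPP highest. Atox1 was 1.67-fold higher in Au_TCPP than in Control (log2 fold change 0.74, SE 0.08, adjusted p = 1.1e-06) and 1.45-fold higher than in Cu_TCPP (adjusted p = 2.9e-05). In Cu_TCPP against Control it differed by 0.20 (SE 0.0798, adjusted p = 0.055), and 10 of the 20 other ways of fitting the data called it higher. Atox1 is a short transcript (541 nt), and genes of that length were higher as a class in Au_TCPP, as described further on.

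Ccs, the chaperone of Sod1, lies on chromosome 19 at 4825366 to 4839322 and had 28.9, 27.4 and 28.8 CPM in Au_TCPP, 19.1, 25.9 and 19.3 CPM in Cu_TCPP, and 22.9, 21.4 and 23.8 CPM in Control libraries. The Au_TCPP libraries lay above all others, and Cu_TCPP replicate 2 lay above Control while the other Cu_TCPP libraries lay below it. Ccs was 1.25-fold higher in Au_TCPP than in Control (log2 fold change 0.32, SE 0.12, adjusted p = 0.027). This call ended without Au_TCPP replicate 1 or 3 or without any 1 Control library, at 0.25 to 0.33 and adjusted p-values of 0.058 to 0.14. In Au_TCPP against Cu_TCPP it was 1.32-fold higher (0.40, adjusted p = 0.0087), and the call ended without Cu_TCPP replicate 1 (0.28, adjusted p = 0.077) or 3 (0.32, adjusted p = 0.055).

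Sod1, the cytosolic copper and zinc superoxide dismutase, showed the largest change of the 10 on the TMM scale in either contrast that involved Au_TCPP. It lies on chromosome 16 at 90220754 to 90226329 and had 883, 717 and 855 CPM in Au_TCPP, 266, 329 and 267 CPM in Cu_TCPP, and 265, 292 and 295 CPM in Control libraries. Every Au_TCPP library was far above the other 6, which overlapped. Sod1 was 2.88-fold higher in Au_TCPP than in Control (log2 fold change 1.53, SE 0.11, adjusted p = 1.9e-08) and 2.85-fold higher than in Cu_TCPP (1.51, adjusted p = 2.2e-08). Its log2 fold change in Au_TCPP against Control, taken with its sign, was above that of 94.4% of all genes tested. In Cu_TCPP against Control the log2 fold change was 0.02, with a 95% interval of -0.20 to 0.23 (adjusted p = 0.92).

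The enzyme and its chaperone did not keep their proportion in Au_TCPP cells. The ratio of Sod1 to Ccs counts was 28.8 ± 2.34 in Au_TCPP, 13.5 ± 0.676 in Cu_TCPP and 12.5 ± 1.05 in Control libraries (SD, n = 3 each). Sod2, the mitochondrial manganese dismutase that needs no copper, averaged 84.9 ± 3.81 CPM in Au_TCPP, 96.4 ± 0.909 CPM in Cu_TCPP and 67.8 ± 0.756 CPM in Control cells (SD, n = 3 each). It was higher in both treatments than in Control (log2 fold change 0.33, adjusted p = 0.0011, in Au_TCPP and 0.51, adjusted p = 9.3e-05, in Cu_TCPP). The ratio of Sod1 to Sod2 counts was therefore 9.65 ± 1.16 in Au_TCPP, 2.98 ± 0.404 in Cu_TCPP and 4.19 ± 0.239 in Control libraries (SD, n = 3 each), highest in Au_TCPP and lowest in Cu_TCPP. Sod3, the secreted copper dismutase, was low throughout, at 2.83 ± 0.259 CPM in Au_TCPP, 1.24 ± 0.28 CPM in Cu_TCPP and 4.11 ± 0.632 CPM in Control cells. It fell by 1.73 on the log2 scale in Cu_TCPP against Control (adjusted p = 8.8e-05) and differed by -0.53 in Au_TCPP against Control (adjusted p = 0.052).

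**Figure D2:**
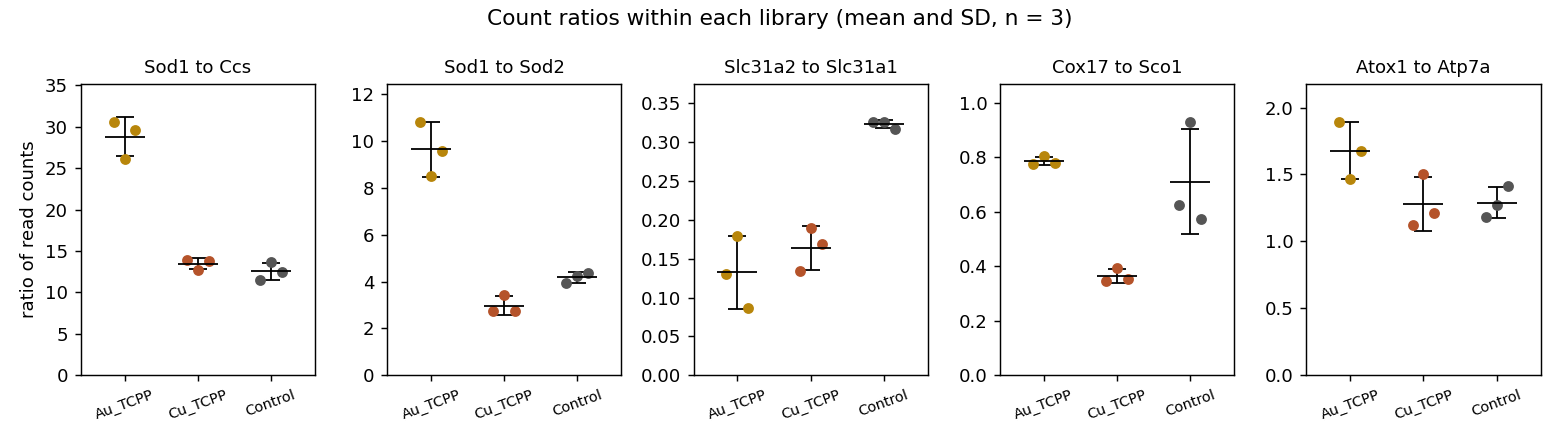
Ratios of read counts between pairs of genes within each library, on linear axes from 0, with points for the 3 libraries of Au_TCPP, Cu_TCPP and Control and bars for the mean and SD. Sod1 to Ccs is at 26.1 to 30.6 in Au_TCPP and 11.5 to 13.9 elsewhere, and Slc31a2 to Slc31a1 is at 0.317 to 0.326 in Control and no higher than 0.189 in the treated libraries.

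Each of the 5 ratios was compared between groups by an exact two-sided permutation test, for which 0.1 is the smallest p that 3 against 3 allows. That smallest p was reached by Sod1 to Sod2 in all 3 contrasts, by Sod1 to Ccs in both contrasts with Au_TCPP, and by Slc31a2 to Slc31a1 in both contrasts with Control. It was also reached by Cox17 to Sco1 in both contrasts with Cu_TCPP and by Atox1 to Atp7a in Au_TCPP against Control. Adjusted over the 15 tests, the smallest p was 0.15, so none could pass a threshold of 0.05.

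Cox17, the chaperone that gives copper to Sco1 in mitochondria, was higher in Au_TCPP and lower in Cu_TCPP than in Control. It lies on chromosome 16 at 38346991 to 38352763 and had 11.9, 13.8 and 13.8 CPM in Au_TCPP, 5.55, 5.99 and 5.81 CPM in Cu_TCPP, and 7.49, 7.92 and 7.61 CPM in Control libraries. The 3 groups did not overlap. Cox17 was 1.71-fold higher in Au_TCPP than in Control (log2 fold change 0.78, SE 0.133, adjusted p = 0.00012) and 2.27-fold higher in Au_TCPP than in Cu_TCPP (1.18, adjusted p = 2.5e-06). In Cu_TCPP against Control it fell by 0.41 on the log2 scale (SE 0.138, adjusted p = 0.029). The last call ended when any 1 of the 6 libraries was left out (-0.37 to -0.42, adjusted p = 0.053 to 0.11), and also with DESeq2 (adjusted p = 0.051) or limma on the deposited FPKM. Cox17 shares 257 nt of exon with the overlapping same-strand gene Gm21987, which had 0 reads in every library. How the authors' counting treated reads in that stretch is not known, so the level of Cox17 is uncertain to that extent.

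Sco1, a copper-binding assembly factor of cytochrome c oxidase that accepts copper from Cox17, had 15.3, 17.2 and 17.7 CPM in Au_TCPP, 16.1, 15.2 and 16.5 CPM in Cu_TCPP, and 11.99, 8.51 and 13.25 CPM in Control libraries. It lies on chromosome 11 at 67052670 to 67067070. All 6 treated libraries were above Control, and the treated groups overlapped. Sco1 was 1.49-fold higher in Au_TCPP (log2 fold change 0.57, SE 0.15, adjusted p = 0.0036) and 1.42-fold higher in Cu_TCPP (0.50, SE 0.148, adjusted p = 0.015) than in Control. The Cu_TCPP call ended without Control replicate 2, the lowest library (0.35, adjusted p = 0.074), or without Cu_TCPP replicate 3 (0.48, adjusted p = 0.051), and the Au_TCPP value came to 0.38 without Control replicate 2. Au_TCPP against Cu_TCPP gave 0.07, with a 95% interval of -0.22 to 0.36. The ratio of Cox17 to Sco1 counts was 0.786 ± 0.0164 in Au_TCPP, 0.363 ± 0.0264 in Cu_TCPP and 0.71 ± 0.193 in Control libraries (SD, n = 3 each), so that Cu_TCPP libraries had the least Cox17 per Sco1.

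Commd1, a copper-toxicosis gene in dogs whose product acts in the COMMD complex on the trafficking of Atp7a and Atp7b, had 23.1, 23.4 and 20.8 CPM in Au_TCPP, 14.95, 16.07 and 16.30 CPM in Cu_TCPP, and 18.2, 16.4 and 19.9 CPM in Control libraries. It lies on chromosome 11 at 22896136 to 22982382. The 3 groups did not overlap, though the gap between Cu_TCPP and Control was narrow. Commd1 was 1.23-fold higher in Au_TCPP than in Control (log2 fold change 0.30, SE 0.11, adjusted p = 0.023) and 1.42-fold higher than in Cu_TCPP (0.51, adjusted p = 0.00094). The Au_TCPP call against Control ended without Au_TCPP replicate 1 or 2 or Control replicate 1 or 2, at 0.20 to 0.26 and adjusted p-values of 0.059 to 0.17. Cu_TCPP against Control gave -0.20, with a 95% interval of -0.42 to 0.01 (adjusted p = 0.16). Commd1 shares 412 nt of exon with Zrsr1 on the opposite strand, which had 0 to 8 reads, and 294 nt with the same-strand Gm28048, which had none. The sources used here do not say whether the authors' counting used strand.

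**Figure D3:**
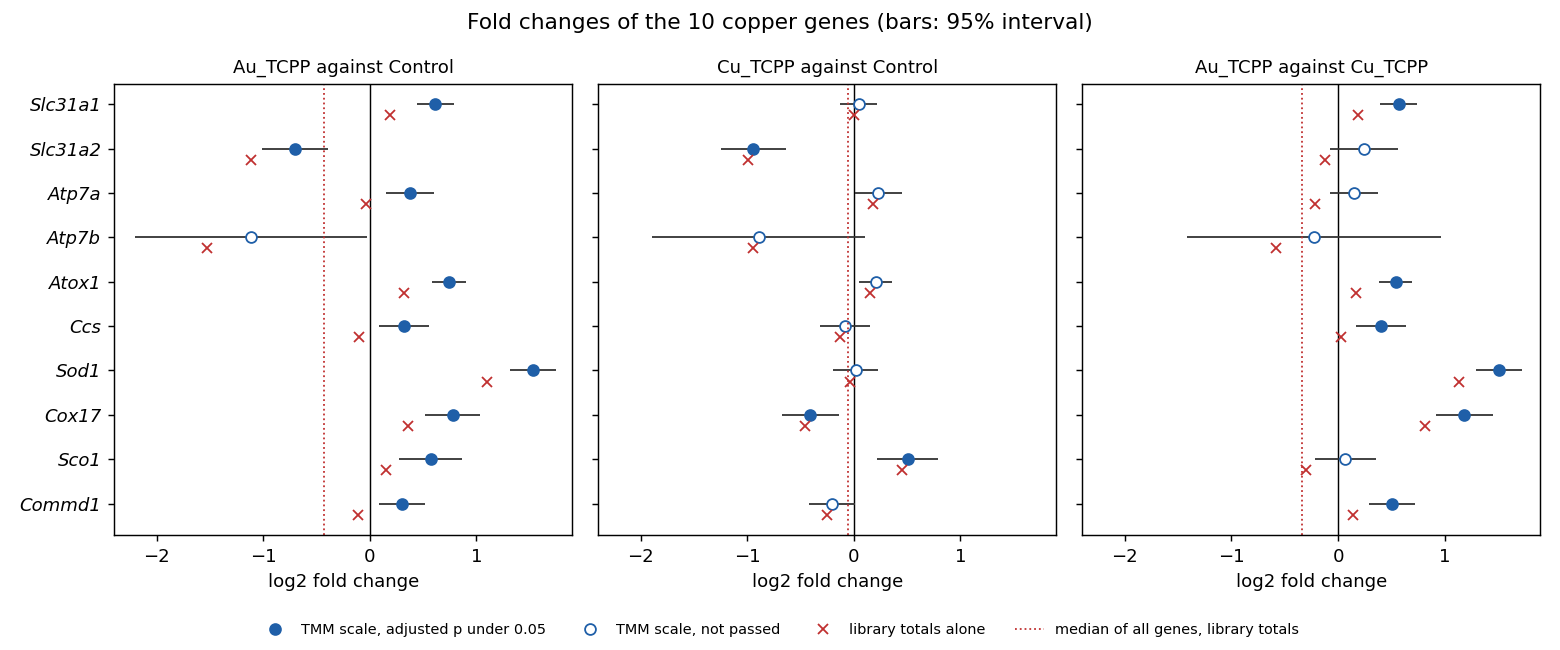
Log2 fold changes of the 10 copper genes in the 3 contrasts, on the TMM scale (circles, filled where the adjusted p was under 0.05, bars the 95% interval) and with library totals alone (crosses), with the median of all genes on the latter scale as a dotted line. In Au_TCPP against Control, Sod1 lies farthest right at 1.53, and the crosses lie to the left of the circles along with the dotted line at -0.43.

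The scale on which libraries are compared bears on every contrast with Au_TCPP. With library totals alone, the median of all genes moved to -0.43 in Au_TCPP against Control and to -0.33 in Au_TCPP against Cu_TCPP, and to -0.06 in Cu_TCPP against Control. The calls over all genes in Au_TCPP against Control then split into 2629 higher and 7096 lower, where TMM gave 4783 higher and 4828 lower. In Au_TCPP against Cu_TCPP they split into 2830 higher and 6526 lower, where TMM gave 4814 and 4362. On that scale 4 of the 10 copper genes were higher in Au_TCPP than in Control and 2 lower: Sod1 (1.10), Cox17 (0.36), Atox1 (0.32) and Slc31a1 (0.19) were higher, and Slc31a2 (-1.11) and Atp7b (-1.52) were lower. Sco1 (0.15), Atp7a (-0.04), Ccs (-0.10) and Commd1 (-0.11) did not pass, and the last 3 changed sign. Set against the median of all genes, those 3 were 0.40, 0.33 and 0.32 above it. The rise of Sod1 and Slc31a1 and the lower level of Slc31a2 in Au_TCPP against Control were called under all 20 alternatives tried.

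Length moved with the change in Au_TCPP cells as well. The median log2 fold change in Au_TCPP against Control was 0.67 over the 1276 genes of at most 1000 nt and -0.45 over the 2058 genes above 8000 nt, while in Cu_TCPP against Control no length range had a median outside -0.04 to 0.03. The deposited gene lengths can differ widely from that of the principal transcript: 3970 nt against 641 nt for Sod1 and 5773 nt against 444 nt for Cox17, where the shorter value is that of the shortest principal transcript of GENCODE M21. With an offset for principal transcript length, which was added after seeing the data, 5 of the 10 were higher in Au_TCPP than in Control: Sod1 at 1.01 (adjusted p = 4.2e-06), Slc31a1 at 0.84, Atp7a at 0.78, Commd1 at 0.66 and Sco1 at 0.59. Slc31a2 stayed lower, at -0.80. Cox17 came to 0.17 (adjusted p = 0.27), Atox1 to 0.18 (adjusted p = 0.071) and Ccs to -0.03 (adjusted p = 0.81), so the calls of these 3 short transcripts against Control ended on that scale. With the offset for deposited length, under which Cox17 and Sod1 count as longer genes, Cox17 came to 1.00 (adjusted p = 1.0e-05), Sod1 to 1.60 and Atox1 to 0.24 (adjusted p = 0.023), all called higher, and Ccs to -0.05 (adjusted p = 0.73). With the offset for principal transcript length in Au_TCPP against Cu_TCPP, Sod1 (0.94) and Cox17 (0.56, adjusted p = 0.0022) were still higher. Atox1 (-0.06) and Ccs (-0.04) were not higher on that scale. Atp7a, which did not pass in that contrast without an offset (0.15), was called higher with the offset for principal transcript length (0.46, adjusted p = 0.0017) and for deposited length (0.42, adjusted p = 0.0032). The same offset by deposited length gave 3824 genes higher and 2322 lower in Cu_TCPP against Control, where the fit without it gave 2673 higher and 2944 lower. Whether the relation to length arose in the cells or in the making of the libraries was not tested.

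**Figure D4:**
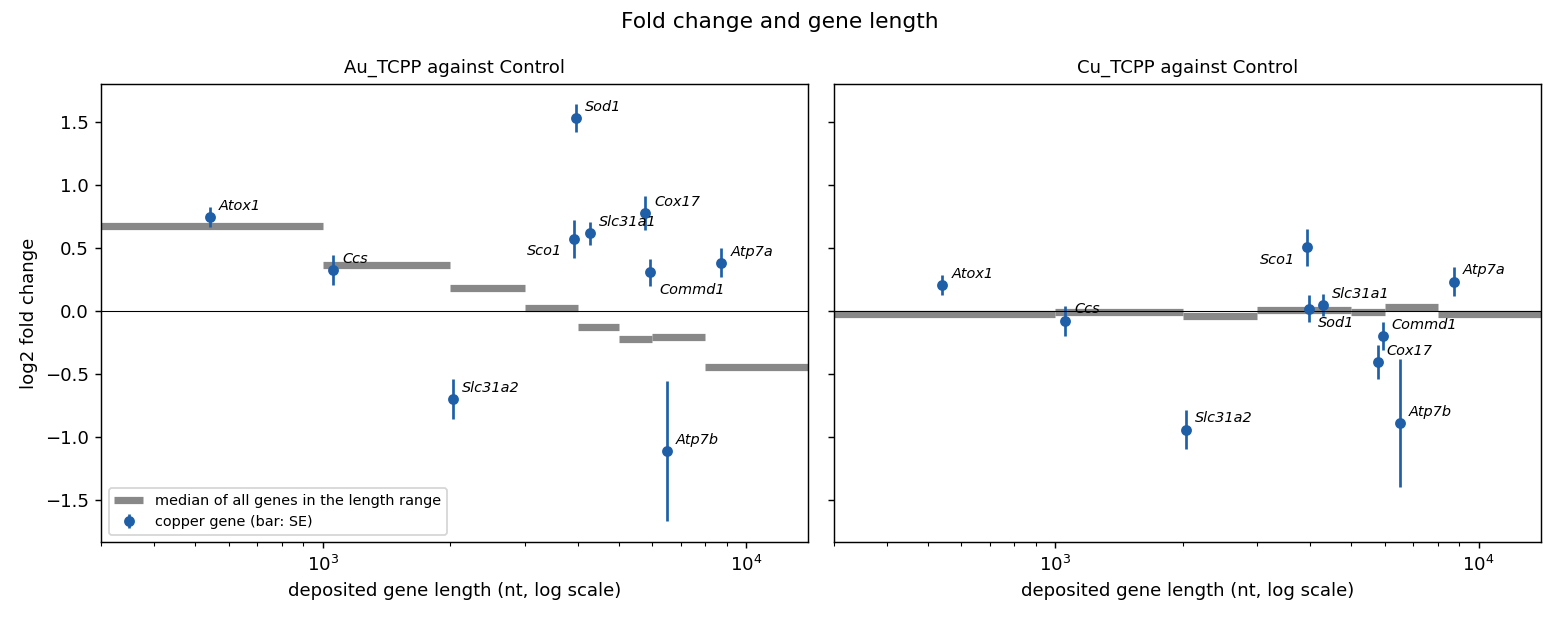
Log2 fold change against deposited gene length (log axis, nt) for the 10 copper genes (points with SE) and the median of all genes in each length range (grey bars), in Au_TCPP against Control and Cu_TCPP against Control. The grey bars fall with length in Au_TCPP, where Atox1 and Ccs lie on them and Sod1 lies far above, and stay near 0 in Cu_TCPP.

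Levels could be compared between the genes only per length. As CPM per kb of principal transcript, Sod1 was the most abundant in every group, at 1277 in Au_TCPP, 448 in Cu_TCPP and 443 in Control cells, followed by Atox1 at 143 in Au_TCPP, 98.0 in Cu_TCPP and 85.1 in Control cells. In Control cells Ccs (21.3) and Slc31a1 (20.8) came next and overlapped, then Cox17 (17.3), Slc31a2 (13.7) and Atp7a (7.29), then Sco1 (4.66) and Commd1 (4.03), which overlapped, and last Atp7b (0.144). The place of Slc31a2 differed in the treated cells: at 8.41 in Au_TCPP and 7.11 in Cu_TCPP its libraries overlapped those of Atp7a and Sco1, which in Control lay below it. In Au_TCPP cells the libraries of Cox17 (29.6) overlapped those of Slc31a1 (31.8) above it and of Ccs (26.6) below it. This order rests on the transcript chosen for each gene: with the deposited FPKM, which use the deposited lengths, Control cells had Atox1 at 83.7 above Sod1 at 70.3, and Cox17 at 1.31.

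The metal buffering list holds metallothionein genes, the factor gene Mtf1, the zinc exporter gene Slc30a1, genes of glutathione synthesis and a glutaredoxin gene. Most of its genes were higher in both treatments. Of 8 tested, 6 were higher in each treatment than in Control, where 34.4% of all genes were higher in Au_TCPP and 19.2% in Cu_TCPP, with a median log2 fold change of 2.52 in Au_TCPP and 0.88 in Cu_TCPP, against -0.01 over all genes in both contrasts. In Au_TCPP against Cu_TCPP, 6 were higher and 1 (the factor gene Mtf1, 22.4 ± 3.84 CPM in Au_TCPP and 30.7 ± 1.28 CPM in Cu_TCPP) was lower, with a median of 1.41. Mt1, a metallothionein, had 1123, 1817 and 1025 CPM in Au_TCPP, against 335 ± 37.4 CPM in Cu_TCPP and 98.0 ± 4.45 CPM in Control cells (SD, n = 3 each). It was 13.5-fold higher in Au_TCPP than in Control (adjusted p = 3.8e-09) and 3.95-fold higher than in Cu_TCPP. The zinc exporter gene Slc30a1, also a target of MTF1, averaged 65.4 ± 21.7 CPM in Au_TCPP, 25.4 ± 2.39 CPM in Cu_TCPP and 7.93 ± 1.07 CPM in Control cells, 8.25-fold higher in Au_TCPP than in Control (adjusted p = 3.4e-08). Gclc, the catalytic subunit of the first enzyme of glutathione synthesis, averaged 147 ± 17.1 CPM in Au_TCPP, 53.3 ± 1.24 CPM in Cu_TCPP and 34.8 ± 1.68 CPM in Control cells. It was 4.21-fold higher in Au_TCPP (adjusted p = 2.5e-10) and 1.53-fold higher in Cu_TCPP (adjusted p = 0.00014) than in Control. Au_TCPP replicate 2 was highest of its group for Mt1 and Slc30a1 and for Slc31a2 and Atp7a, and lowest for Slc31a1 and Sod1. Of the 10 copper genes only Slc31a2 was called lower in both treatments while these buffering genes were called higher. Atp7b, at few reads, also had negative estimates against Control (-1.12 in Au_TCPP and -0.89 in Cu_TCPP) but did not pass.

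**Figure D5:**
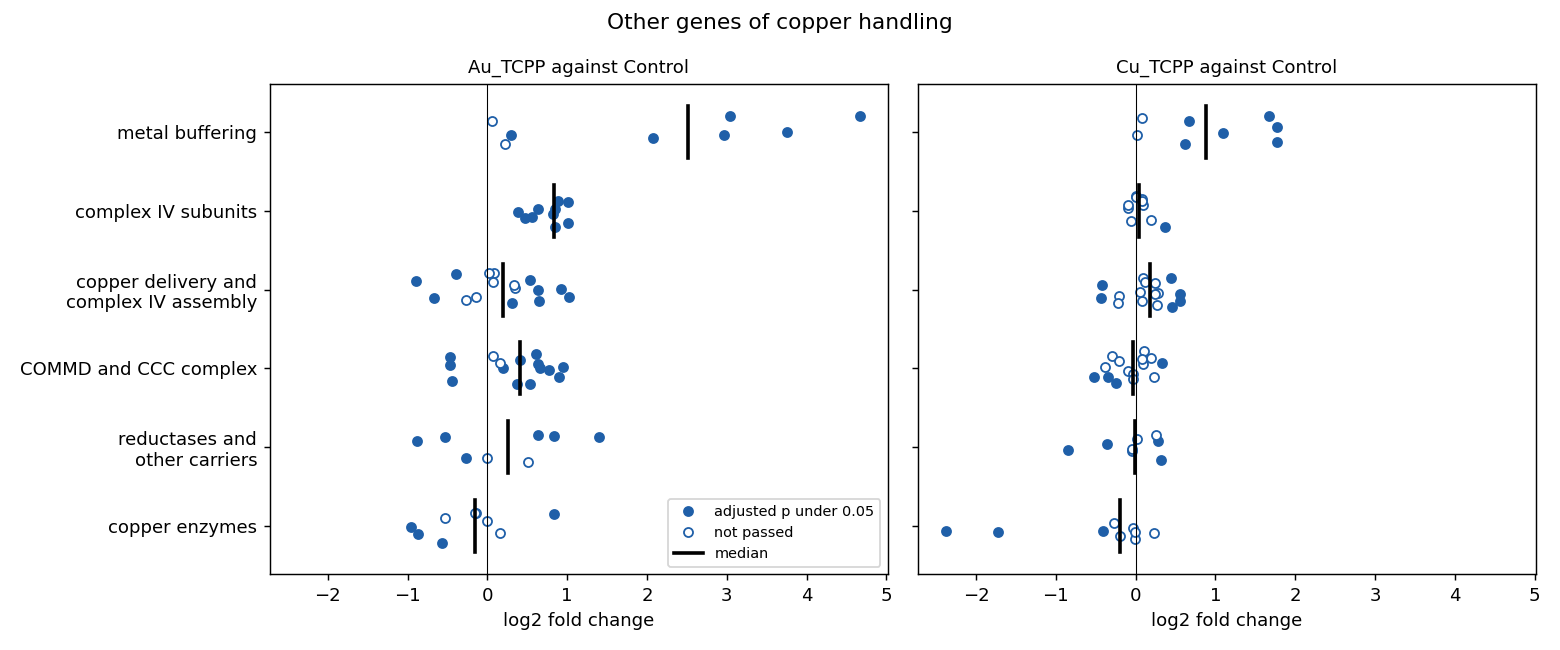
Log2 fold changes of other genes of copper handling by list, in Au_TCPP against Control and Cu_TCPP against Control, with filled points for an adjusted p under 0.05, open points for genes that did not pass, and a bar for the list's median. Metal buffering genes reach a median of 2.52 in Au_TCPP and 0.88 in Cu_TCPP, and the 10 complex IV subunits are all to the right of 0 in Au_TCPP.

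Around Cox17 and Sco1, the nuclear subunits of cytochrome c oxidase (complex IV) were higher in Au_TCPP for 10 of 10 genes against Control (median 0.84). Against Cu_TCPP 10 of 10 were higher (median 0.76), and 9 with any 1 library left out. In Cu_TCPP against Control 1 of 10, Cox5a, was higher (median 0.04). Over all genes tested, 34.4%, 34.6% and 19.2% were higher in these contrasts, in that order. Cox7c averaged 195 ± 7.77 CPM in Au_TCPP, 103 ± 3.41 CPM in Cu_TCPP and 96.6 ± 2.83 CPM in Control cells, 2.02-fold higher in Au_TCPP than in Control (adjusted p = 3.3e-08). The subunits are short transcripts, and with the offset for principal transcript length 5 of the 10 were called higher in Au_TCPP against Control. With that offset 4772 of the 13915 genes tested were called higher. The assembly and copper-delivery factors other than the members had no common direction: of 16 tested, 6 were higher and 3 lower in Au_TCPP against Control (median 0.20), with 4 higher and 2 lower in Cu_TCPP against Control (median 0.18). Over all genes tested, 69.1% were called in Au_TCPP and 40.4% in Cu_TCPP against Control. With library totals alone the Au_TCPP counts of these factors became 2 higher and 7 lower. Cox15, a heme A synthesis factor, averaged 34.5 ± 0.836 CPM in Au_TCPP, 68.8 ± 1.63 CPM in Cu_TCPP and 64.3 ± 1.51 CPM in Control cells and fell by 0.90 on the log2 scale in Au_TCPP against Control (adjusted p = 1.1e-07). Coa5, an assembly factor, was higher in Cu_TCPP (82.0 ± 2.82 CPM) than in Control (55.8 ± 1.37 CPM), by 0.55 on the log2 scale (adjusted p = 6.9e-05). The 3 lower calls in Au_TCPP came to 1 without Au_TCPP replicate 3, and the 2 lower calls in Cu_TCPP came to 1 without Cu_TCPP replicate 1 or 2 or Control replicate 2 and to 0 without Control replicate 3.

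Around Commd1, 15 other genes of the COMMD, CCC and WASH complexes, which act together in endosomal recycling, were tested. In Au_TCPP 10 were higher and 3 lower than in Control (median 0.41), and in Cu_TCPP 1 was higher and 3 were lower (median -0.03). Over all genes tested, 34.4% were higher and 34.7% lower in Au_TCPP, and 19.2% higher and 21.2% lower in Cu_TCPP. With any 1 library left out, 8 to 9 of these genes were higher in Au_TCPP than in Control. The Au_TCPP split became 3 higher and 5 lower with library totals alone. The Cu_TCPP counts moved to between 0 and 2 higher and between 1 and 6 lower as single libraries were left out. Commd6 averaged 23.3 ± 2.02 CPM in Au_TCPP, 12.9 ± 1.73 CPM in Cu_TCPP and 12.1 ± 0.457 CPM in Control cells and was 1.93-fold higher in Au_TCPP than in Control (adjusted p = 8.6e-06). Washc1 was lower in both treatments, at 27.7 ± 5.99 CPM in Au_TCPP, 26.7 ± 2.65 CPM in Cu_TCPP and 38.3 ± 4.60 CPM in Control cells.

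Of 9 copper-dependent enzymes tested, 1 was higher and 3 lower in Au_TCPP against Control (median -0.15), and none was higher and 3 were lower in Cu_TCPP against Control (median -0.19), with none higher at an unadjusted p under 0.05 or with DESeq2 either. The called share of all genes was 69.1% in Au_TCPP and 40.4% in Cu_TCPP against Control. The higher call in Au_TCPP ended without any 1 Control library. Ceruloplasmin (Cp), the copper-loaded ferroxidase, separated the materials: it averaged 120 ± 13.8 CPM in Au_TCPP, 25.5 ± 4.28 CPM in Cu_TCPP and 132 ± 5.67 CPM in Control cells. It fell by 2.37 on the log2 scale in Cu_TCPP against Control (adjusted p = 1.8e-08) and differed by -0.14 in Au_TCPP against Control (adjusted p = 0.28). Loxl4, a lysyl oxidase family enzyme, averaged 251 ± 2.2 CPM in Au_TCPP, 457 ± 14.1 CPM in Cu_TCPP and 460 ± 5.59 CPM in Control cells, 1.83-fold lower in Au_TCPP than in Control (adjusted p = 1.4e-07).

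Among 8 metal reductases and other copper-binding or copper-carrying proteins, 3 were higher and 3 lower in Au_TCPP against Control (median 0.25) and 2 were higher and 2 lower in Cu_TCPP against Control (median -0.01), where the higher calls came to 1 or 0 without any 1 Cu_TCPP or Control library. Of all genes tested, 69.1% were called in the first contrast and 40.4% in the second. Prnp, the copper-binding prion protein, averaged 228 ± 7.61 CPM in Au_TCPP, 83.8 ± 4.42 CPM in Cu_TCPP and 86.6 ± 3.56 CPM in Control cells, 2.63-fold higher in Au_TCPP than in Control (adjusted p = 2.2e-09). Within the Steap family, Steap2 and Steap1 moved in opposite directions in Au_TCPP. Steap2 averaged 169 ± 26.0 CPM in Au_TCPP, 303 ± 13.8 CPM in Cu_TCPP and 312 ± 20.2 CPM in Control cells. Steap1 averaged 103 ± 19.1 CPM in Au_TCPP, 71.6 ± 2.23 CPM in Cu_TCPP and 57.2 ± 1.57 CPM in Control cells. Steap2 was 1.84-fold lower (adjusted p = 4.4e-06) and Steap1 1.79-fold higher (adjusted p = 7.9e-06) in Au_TCPP than in Control.

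The genes whose levels across the 9 libraries were most like a transporter's were ranked by the root mean square difference of centred log2 CPM over 11559 protein-coding genes, as a description only. For Slc31a1 they were Rp2 (0.029), Ssr3 (0.039) and Khdc4 (0.049), for Slc31a2 Hoga1 (0.082), Hoxa5 (0.092) and Tmem176b (0.125), and for Atp7a Zyg11b (0.057), Phip (0.061) and Synj2bp (0.082). Tmem176b, for example, averaged 186 ± 45.3 CPM in Au_TCPP, 182 ± 7.45 CPM in Cu_TCPP and 352 ± 9.83 CPM in Control cells, the same order as Slc31a2 when the treatments are set against Control.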

How the data were processed

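Polyadenylated RNA of 4T1 cells was made into libraries with QIAGEN's QIAseq FX kit for single-cell RNA and read on a HiSeq2000, per the labels' protocols. The submitters' processing notes name mm10, Bowtie 0.12.9, Cufflinks 2.1.1, and HTSeq with no version stated. Read counts in the deposited table were left unnormalized by the authors, per the file headers, whereas FPKM were divided by the authors by gene length and library size. The authors' group means in the deposited table were not used. Their deposited log2 fold changes and p-values served to count the authors' calls, and the sources do not name the test behind them.

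Counts went into edgeR 4.0.16 (R 4.3.3) with TMM scaling and filterByExpr. All 9 libraries entered 1 robust quasi-likelihood fit with a mean for each group, and p-values were adjusted by Benjamini-Hochberg over 13915 genes. The SE is the absolute log2 fold change over the square root of F, and 95% intervals extend 1.96 SE to either side. The steps were tested on simulated data. Alternatives were RLE scaling, totals without scaling, no filter, a filter of 1 CPM in 3 libraries, a replicate block, the 6 libraries of a comparison alone, an offset for gene length (a spline with 5 degrees of freedom), DESeq2 1.42.0, limma 3.58.1 on log2(FPKM + 1) or log2(FPKM + 0.1), and each library left out. An offset for principal transcript length was chosen after seeing the data. It used that length for the 82.9% of tested genes that have such a transcript in GENCODE M21, and the deposited length for the rest. Promoter sequences are RefSeq's on GRCm38.p6. The named genes are all 10 members, from each wider list at most the 3 called genes with the smallest p in a comparison, and genes set against a member; Mtf1 was named after its values were seen. The members and lists were chosen with earlier results of these data known.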

Additional observations from a re-analysis of the deposited data

How the results depend on the processing

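Of 596 alternative values of the 10 genes' log2 fold changes, 516 kept their direction and their side of the threshold, 33 lost a call, 21 gained one and 26 changed sign. Unless said otherwise, the cause was not tested. In Cu_TCPP against Control, the number of members called higher was 2 with RLE, DESeq2 and both limma fits, 3 with both length offsets and with the 6 libraries alone, and 0 to 3 with 1 library left out. The number called lower was 1 with no filter, the gene-length offset, DESeq2 and both limma fits, and 1 to 2 with 1 library left out. In Au_TCPP against Control, 4 were called higher and 2 lower with library totals, and 5 higher with the principal-length offset. With 1 library left out, 6 to 8 were called higher and 1 to 2 lower in that contrast. With no filter, Ccs (0.27, adjusted p = 0.071) and Commd1 (0.25, adjusted p = 0.13) lost their calls there. In Au_TCPP against Cu_TCPP, 3 were called higher with library totals, and 5 to 7 with 1 library left out. With library totals the sign turned for Slc31a1 (-0.0031) and Sod1 (-0.032) in Cu_TCPP against Control, for Atp7a (-0.036), Ccs (-0.10), Commd1 (-0.11) and Sod2 (-0.10) in Au_TCPP against Control, and for Slc31a2 (-0.12), Atp7a (-0.22) and Sco1 (-0.30) in Au_TCPP against Cu_TCPP. With the gene-length offset it turned for Ccs in Cu_TCPP (0.015) and Au_TCPP (-0.051) against Control, and in Au_TCPP against Cu_TCPP for Slc31a2 (-0.076), Atox1 (-0.011), Ccs (-0.067) and Sod2 (0.14). With the principal-length offset it turned for Ccs in Cu_TCPP (0.0063) and Au_TCPP (-0.034) against Control, and in Au_TCPP against Cu_TCPP for Atp7b (0.23), Atox1 (-0.058), Ccs (-0.041), Sco1 (-0.039) and Sod2 (0.23). Without a filter Sco1 came to -0.0062 in Au_TCPP against Cu_TCPP. With 1 library left out, Ccs ranged from -0.23 to 0.0055 and Sod1 from -0.079 to 0.078 in Cu_TCPP against Control, and Atp7b from -1.13 to 0.14 and Sco1 from -0.019 to 0.092 in Au_TCPP against Cu_TCPP. Over all genes, the calls in Cu_TCPP against Control were 5617, and 4226 to 7179 with 1 library left out. The replicate numbers only name samples: correlations of same-numbered deviations lay between -0.0834 and 0.0760. With the replicate block the calls over all genes were 5507 in Cu_TCPP against Control, 9505 in Au_TCPP against Control and 9059 in Au_TCPP against Cu_TCPP, and the members called higher were 1, 8 and 6. Depth limits Atp7b, with 2 to 26 reads a library.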
